A study of Arabidopsis thaliana with 18 samples.

Results

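Chromosome 2 from 16 to 19 Mb is a stretch at which the Arabidopsis thaliana line Col-S carries RNA levels like those of its donor parent Cvi-0. Its members are the genes of the count files on chromosome 2 whose midpoint lies in that interval, 913 of the 32678 genes listed. Of these, 714 passed the filter on low counts and were tested, and 199 were not, among them 57 with no count in any library. The stretch was chosen from the control libraries, because genes that differed at least 2-fold there between Cvi-0 and Col-0 had Col-S control means nearer to Cvi-0. Differences between genotypes in the control libraries are therefore given as a description. Comparisons between genotypes after ozone set ozone libraries against each other, and the choice did not use these. Their filter, scaling and estimate of spread came from a fit of all 18 libraries, controls included. Some of the genes they count also differed in controls. Ozone responses and their differences use the control libraries too and are not independent of the choice.

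The series held 18 libraries of messenger RNA from whole rosettes of 3-week-old plants, 3 for each combination of genotype and treatment. Col-S is known as a single near-isogenic line that carries ozone sensitivity of the accession Cvi-0, its donor parent, in the background of Col-0, the standard laboratory accession. Plants of each genotype were exposed to 350 ppb ozone for 2 h or kept as controls, and rosettes, 10 to 15 at a time, were pooled before RNA extraction, so that a value stands for several plants. The labels give neither the borders of the introgressed pieces nor any other piece that Col-S may carry, and a stretch of chromosome 3 from 17 to 21 Mb is used below as the region most like this one.

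A near-isogenic line keeps a piece of donor chromosome after repeated crosses to the other parent, so that genes in the piece are read from donor alleles while regulators elsewhere come from the background. A gene in the piece that differs through its own control sequence then follows the donor, and one that differs through a regulator in the background follows the background. A regulator inside a donor piece comes from the donor as well. A gene that follows the donor through it cannot be told apart here from one that does so through its own control sequence. Ozone enters leaves through the stomata and breaks down to reactive oxygen in the cell wall space, which sets off calcium signals, MAP kinases, stress hormones and, in sensitive plants, cell death.

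The upstream sequence of 5 members is shown because these genes carry the clearest patterns described below: AT2G43960 was close to silent in Col-0, AT2G41440 was close to silent in the other two genotypes, BAG6 and DREB2C were far higher after ozone in Col-S and Cvi-0 than in Col-0, and AT2G38990 had counts in Cvi-0 only. Each line gives, from 5′ to 3′ on the strand of the gene, the longest run that no annotated gene covers within the 250 bases before the annotated start. It was read from the RefSeq copy of the TAIR10.1 genome. Between the run and the start lie 29 bases at AT2G41440 and 7 bases at DREB2C. These letters are those of Col-0 and not of Cvi-0. Capitals mark matches to the heat shock element GAANNTTC, the G-box CACGTG and the core of the W-box TTGAC, each searched on both strands, so that a match on the other strand shows its reverse complement.
AT2G43960, minus strand, chr2:18204913-18205162: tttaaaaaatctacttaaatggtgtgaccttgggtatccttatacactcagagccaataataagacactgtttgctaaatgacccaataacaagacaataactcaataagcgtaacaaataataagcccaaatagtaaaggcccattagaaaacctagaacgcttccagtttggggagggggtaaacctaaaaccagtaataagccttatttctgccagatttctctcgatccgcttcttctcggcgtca
AT2G41440, plus strand, chr2:17270922-17271142: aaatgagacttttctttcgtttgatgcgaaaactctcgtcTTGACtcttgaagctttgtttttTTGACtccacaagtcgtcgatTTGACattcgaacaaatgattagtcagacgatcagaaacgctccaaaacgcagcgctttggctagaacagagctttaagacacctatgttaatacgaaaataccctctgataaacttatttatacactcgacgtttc
BAG6, plus strand, chr2:18985960-18986132: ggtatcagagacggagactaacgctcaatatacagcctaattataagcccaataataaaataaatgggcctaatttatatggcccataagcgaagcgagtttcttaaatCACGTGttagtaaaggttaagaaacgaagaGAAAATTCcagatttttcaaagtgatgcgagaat
DREB2C, minus strand, chr2:16850495-16850737: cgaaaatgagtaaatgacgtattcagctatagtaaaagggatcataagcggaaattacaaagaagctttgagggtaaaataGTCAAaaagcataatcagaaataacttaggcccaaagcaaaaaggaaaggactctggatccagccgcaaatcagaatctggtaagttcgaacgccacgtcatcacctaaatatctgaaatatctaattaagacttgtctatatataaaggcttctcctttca
AT2G38990, plus strand, chr2:16279835-16280084: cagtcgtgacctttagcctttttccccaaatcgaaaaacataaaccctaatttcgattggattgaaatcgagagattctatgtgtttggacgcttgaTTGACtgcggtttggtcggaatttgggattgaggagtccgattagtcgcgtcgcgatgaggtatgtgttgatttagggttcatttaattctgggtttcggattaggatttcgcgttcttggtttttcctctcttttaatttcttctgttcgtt

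AT2G43960 held no match, AT2G41440 held 3 W-box cores, BAG6 held 1 heat shock element and 1 G-box, and DREB2C and AT2G38990 each held 1 W-box core. In windows of 250 bases before the starts of all 913 members, 76 (8.32%) held a heat shock element, 373 (40.9%) a W-box core and 83 (9.09%) a G-box. Unlike the lines above, these windows were full length and kept bases that other genes cover. A match describes the letters of the window and is not a site shown to be bound.

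Total counts ranged from 14905841 to 26171613 per library, and the stretch took 3.45 to 3.90% of them. Levels are given as CPM, counts scaled to the TMM-adjusted library size. The smallest amount that can be told from none was taken as 3 counts. Scaled to the total counts without the TMM adjustment, these came to between 0.115 and 0.201 CPM. Such floors, and the intervals below, cover counting error only. The labelled tissue was borne out by 4 markers of green rosettes, which summed to 19800 to 22600 CPM in Col-S ozone, 15500 to 19600 in Cvi-0 ozone and 26800 to 33400 in Col-0 ozone libraries, against 35000 to 39400 over all controls. The summed level of 4 root markers lay between 37.6 and 86.2 CPM and that of 5 flower markers between 0.337 and 2.81 CPM over all libraries, and up to 2 markers of either list had no count in a group. Among the ozone libraries, those of replicate 2 stood apart from the other two replicates in all 3 genotypes, on the first principal component of the deviations from group means (31.9% of the variance), where they had -38 in Col-S, -20.1 in Cvi-0 and -30.5 in Col-0 and all others lay between 8.42 and 23.2. Counts without the replicate 2 libraries are given beside the results, a setting chosen after seeing the data. The green markers were thus lower in the ozone libraries of Col-S and Cvi-0 than in those of Col-0, and their part in the results was not tested. In whole rosettes, fewer cells of a type and less RNA per cell cannot be told apart. Reads were aligned to the TAIR10 genome, which is that of Col-0, so that for a gene lower in Cvi-0 and Col-S a diverged or missing sequence and less RNA cannot be told apart.

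After ozone, 117 members were parental-difference genes, that is, called and at least 2-fold different between Cvi-0 and Col-0, with 73 higher and 44 lower in Cvi-0, where 20.5% of all tested genes met these criteria. Col-S lay nearer to Cvi-0 at 95 of them (81.2%), 59 of the higher and 36 of the lower ones, and nearer to Col-0 at 22. Among the genes outside the stretch that differed between the parents in the same way, Col-S lay nearer to Cvi-0 at 1355 of 4113 (32.9%). Of the 117 members, 29 met the criteria in controls too, in the same direction, and Col-S lay nearer to Cvi-0 at 25 of these. The stretch was chosen on such genes, so that setting the 117 beside the genes outside is not fully independent of the choice. The share without them is given below. Position was measured on log2 CPM as the distance of Col-S from Col-0 divided by the distance of Cvi-0 from Col-0, so that 0 is the level of Col-0 and 1 that of Cvi-0. The median position of the 117 members was 0.74, with quartiles of 0.55 and 0.92, against a median of 0.31 outside the stretch. Both differences of a gene use the same 3 Col-0 ozone libraries, inside and outside the stretch alike.

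**Figure D1:**
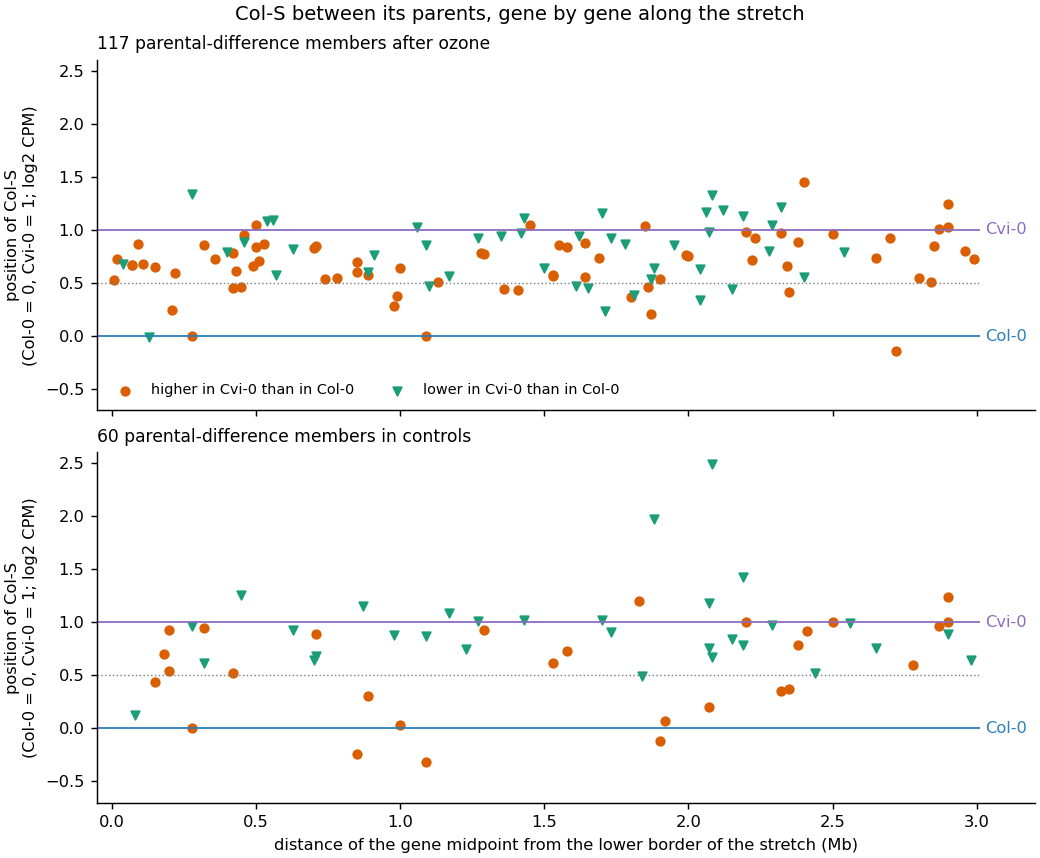
Position of Col-S between Col-0 (0) and Cvi-0 (1) on log2 CPM for each parental-difference member, along the distance of its midpoint from the lower border in Mb, after ozone (117 genes) and in controls (60 genes, used to choose the stretch). Most points of both kinds, higher (circles) or lower (triangles) in Cvi-0, lie above the dotted line at 0.5 over the whole 3 Mb, and the few near 0 lie among them.

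The position was over 0.75 at 56 of the 117 members, between 0.4 and 0.6 at 28 and under 0.25 at 6. It passed 1 at 19 members, the highest being 1.45 at AT2G44578, a RING/U-box protein, and was under 0 at 2, the lowest being -0.14 at LBD18, a regulator of lateral root formation. Just above the limit of 0.5 stood EEL and AT2G45750 at 0.51, and just below it stood FBH4 and MYBC1 at 0.47. Col-S differed from Col-0 at 88 of the 117 members by the edgeR test and from Cvi-0 at 30, and it differed from both at 23. Of the 95 members nearer to Cvi-0, 83 were called against Col-0, and of the 22 nearer to Col-0, 12 were called against Cvi-0. With any 1 library left out, the share of members nearer to Cvi-0 ranged from 69.5 to 85.2%. Without the replicate 2 libraries of every group, it was 90 of 110 (81.8%). In a fit of the ozone libraries alone, it was 92 of 113 (81.4%).

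Members that follow Cvi-0 were spread over the whole stretch. The share after ozone was 36 of 43 (83.7%) from 16 to 17 Mb, 30 of 41 (73.2%) from 17 to 18 Mb and 29 of 33 (87.9%) from 18 to 19 Mb. Side by side with these, the share was 121 of 177 (68.4%) on chromosome 3 from 17 to 21 Mb, 18 of 30 (60%) from 19 Mb to the end of chromosome 2, 42 of 92 (45.7%) in the 2 Mb below the stretch and 111 of 400 (27.8%) further below. No test was made between regions. Where the parental difference passed the criteria after ozone but not in controls in the same direction, the share was 70 of 88 (79.5%) in the stretch and 1220 of 2670 (45.7%) outside. Such genes can still differ in controls short of the criteria, so that this share is not fully independent of the choice either. Genes that passed the criteria in both conditions are not compared on their own with the rest of the genome, because the stretch was chosen on such genes.

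**Figure D2:**
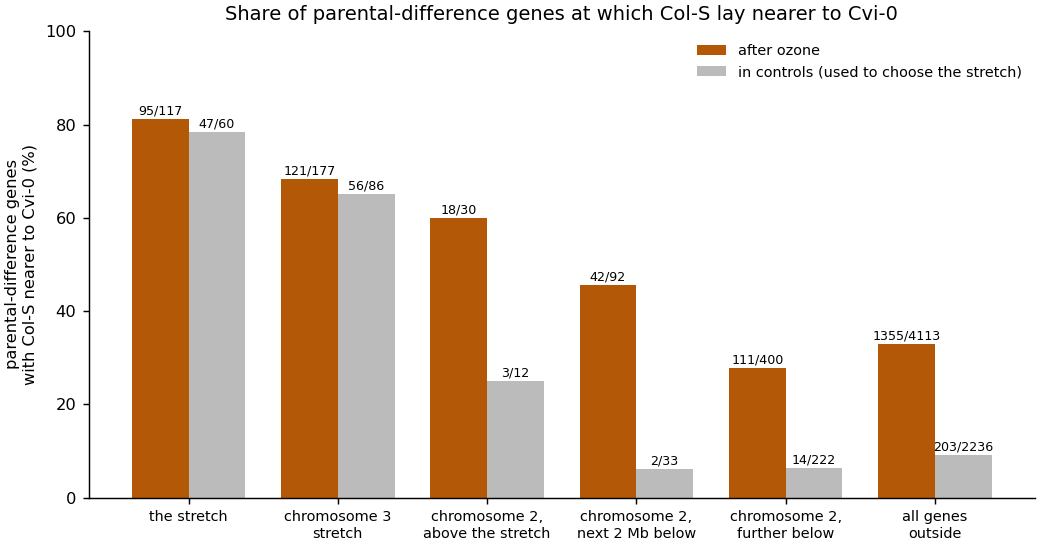
Percentage of parental-difference genes at which Col-S lay nearer to Cvi-0, by region, after ozone (brown) and in controls (grey), with the counts above each bar. After ozone the stretch stands at 95 of 117 and all genes outside at 1355 of 4113, and in controls, which chose the stretch, at 47 of 60 and 203 of 2236.

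Counted one comparison at a time, Col-S differed from Col-0 after ozone at 95 members that were higher and 94 that were lower, 26.5% of those tested, where 15.9% of all tested genes were called. The higher calls of the stretch stand against 10.2% of all genes and the lower calls against 5.74%. Without Col-0 ozone replicate 2, or without Col-S ozone replicate 3, the higher calls of the stretch numbered 59. Without the replicate 2 libraries of every group, 73 members were higher and 67 lower. In a fit of the ozone libraries alone, 66 members were higher and 73 lower. With the replicate number as a block, 120 members were higher and 129 lower, and calls over all genes numbered 4876 where the fit without it had 3278. Col-S differed from Cvi-0 at 32 higher and 44 lower members, 10.6% against 28.6% of all genes (14.8% higher and 13.8% lower). With the replicate number as a block these counts were 50 and 71, without Cvi-0 ozone replicate 3 the higher calls numbered 18, and without Col-S ozone replicate 1 or 2 the lower calls numbered 29 or 28. Without the replicate 2 libraries of every group, Col-S was higher than Cvi-0 at 20 members and lower at 22. Cvi-0 differed from Col-0 at 154 higher and 155 lower members, 43.3% where 49% of all genes were called (24.6% higher and 24.4% lower), and without the replicate 2 libraries at 119 and 117.

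Among members with a mean log2 CPM of at least 1, those higher in Col-S than in Col-0 after ozone were led by AT2G43960, which encodes a protein with a SWAP domain, a fold found in RNA-processing factors. It had 60, 56.7 and 49.6 CPM in Col-S, 65.8, 63.3 and 58.4 CPM in Cvi-0, and 0, 0.0409 and 0 CPM in Col-0 ozone libraries. All Col-S and Cvi-0 values lay above 49 CPM and the 3 Col-0 libraries held a single read together. The ratio of Col-S to Col-0 was 3540 (95% interval 635 to 140000), that of Cvi-0 to Col-0 was 3970 (711 to 157000), and the adjusted p of Col-S against Col-0 was 1.2e-12. It did not pass the test between Col-S and Cvi-0 (log2 -0.17, SE 0.11, adjusted p = 0.29).

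DREB2C, a transcription factor of the AP2/ERF family known from heat stress, had 10.9, 7.12 and 39.8 CPM in Col-S, 52.8, 40 and 85.8 CPM in Cvi-0, and 0.884, 0.205 and 0.705 CPM in Col-0 ozone libraries. Col-S was far above Col-0 without overlap, its replicate 3 stood apart from the other two, and its levels did not reach those of Cvi-0. The log2 fold change of Col-S over Col-0 was 5.03 (SE 0.65, adjusted p = 6.8e-05). That of Col-S over Cvi-0 was -1.65 (SE 0.45, adjusted p = 0.011), and it missed the threshold without Col-S ozone replicate 1 (-1.36, adjusted p = 0.057), without Cvi-0 ozone replicate 3 (-1.26, adjusted p = 0.076), in a fit of the ozone libraries alone (-1.65, adjusted p = 0.054) and with DESeq2 (-1.63, adjusted p = 0.087). Its control libraries lay at or below 0.182 CPM in all 3 genotypes.

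BAG6, a co-chaperone that binds calmodulin and is known from heat and defence, had 84.3, 71.5 and 299 CPM in Col-S, 206, 228 and 398 CPM in Cvi-0, and 10.5, 13.5 and 21 CPM in Col-0 ozone libraries. The lowest Col-S value was more than 3 times the highest of Col-0, and Col-S replicate 3 fell among the Cvi-0 values while the other two lay below them. Its log2 fold change over Col-0 was 3.34 (SE 0.44, adjusted p = 9e-05). Against Cvi-0 it was -0.87 (SE 0.4, adjusted p = 0.12), and this difference was called with the replicate number as a block (-1.01, adjusted p = 0.012) and without Col-S ozone replicate 3 (-1.83, adjusted p = 9.7e-05).

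**Figure D3:**
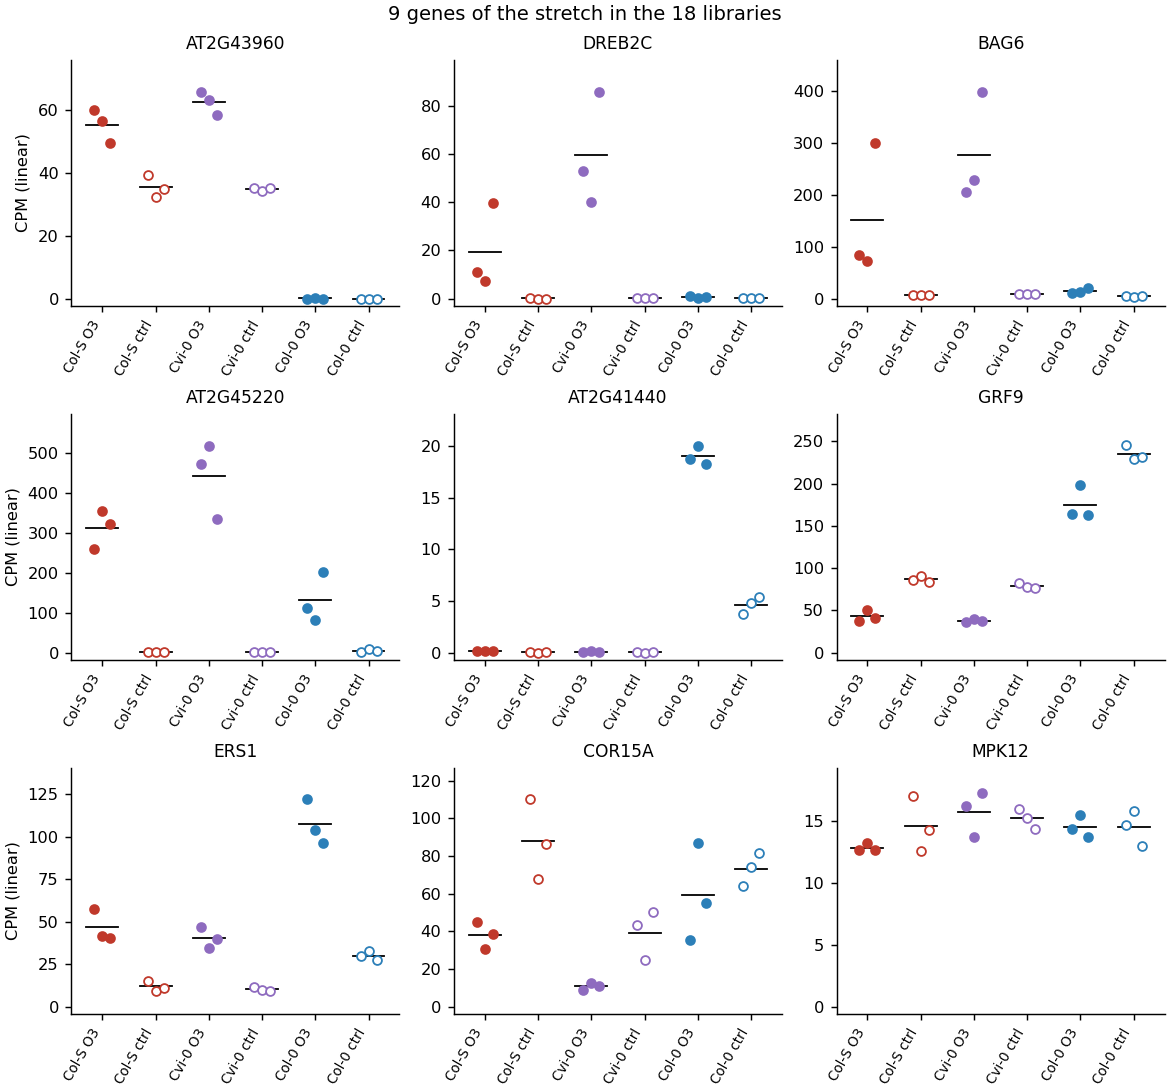
CPM on a linear axis of 9 members in the 18 libraries, by genotype (Col-S red, Cvi-0 purple, Col-0 blue) and treatment (O3, ozone, filled; ctrl, control, open), with a line at each mean of 3. AT2G43960, DREB2C, BAG6 and AT2G45220 are high in Col-S and Cvi-0 ozone libraries, AT2G41440, GRF9 and ERS1 are low in both, COR15A in Col-S lies above Cvi-0, and MPK12 lies between 12.6 and 17.3 CPM in all libraries.

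The other members of this group differed less. AT2G45930, an uncharacterized protein, averaged 6.13 ± 0.611 CPM in Col-S, 5.73 ± 0.52 CPM in Cvi-0 and 0.447 ± 0.151 CPM in Col-0 ozone libraries (SD, n = 3 each). The protein kinase gene AT2G39110 had 16.4, 11.6 and 23.6 CPM in Col-S, 21.7, 24 and 25.4 CPM in Cvi-0, and 1.91, 1.60 and 1.63 CPM in Col-0, and Col-S and Cvi-0 overlapped while Col-0 lay below both. Their log2 fold changes of Col-S over Col-0 were 3.77 (SE 0.25) and 3.32 (SE 0.25). For AT2G39110 the difference between Col-S and Cvi-0 was called only with the replicate block (-0.5, adjusted p = 0.045) and without Col-S ozone replicate 3 (-0.76, adjusted p = 0.0091), among the settings tried.

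AT2G42480, a MATH domain protein, averaged 22.2 ± 4.6 CPM in Col-S, 49.6 ± 9.99 CPM in Cvi-0 and 2.29 ± 0.456 CPM in Col-0 ozone libraries, and no 2 groups overlapped. Col-S was above Col-0 (log2 3.29, SE 0.23, adjusted p = 1.7e-07) and below Cvi-0 (-1.16, SE 0.19, adjusted p = 0.00016). AT2G44380, a C1 domain protein of the cysteine- and histidine-rich family, averaged 8.39 ± 1.26 CPM in Col-S, 9.02 ± 2.11 CPM in Cvi-0 and 1.12 ± 0.46 CPM in Col-0 (log2 Col-S over Col-0 2.88, SE 0.4). AT2G42170, of the actin family, had 5.04 ± 0.468 CPM in Col-S, 7.18 ± 0.448 CPM in Cvi-0 and 0.78 ± 0.159 CPM in Col-0. In Col-S it was also called below Cvi-0, a call lost in 5 of 24 alternative settings (log2 -0.59 to -0.47). It was the one of these 8 with lower levels after ozone than in controls in all 3 genotypes, where the controls averaged 7.96, 10.96 and 3.22 CPM in the same order.

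Among members of the same minimum level, those lower in Col-S than in Col-0 after ozone were led by AT2G41440, annotated as a MADS-box protein of the agamous-like family, the class of transcription factors that includes the regulators of flower organs. It had 0.197, 0.144 and 0.136 CPM in Col-S, 0.057, 0.12 and 0.0689 CPM in Cvi-0, and 18.8, 20.0 and 18.3 CPM in Col-0 ozone libraries. Col-S and Cvi-0 lay at or near the floor of 3 counts, and their control libraries, at 0 to 0.0637 CPM, lay below it. The log2 fold change of Col-S over Col-0 was -6.83 (SE 0.27, adjusted p = 9.2e-11). In Col-0 the gene was higher after ozone than in controls, at 19.0 ± 0.88 and 4.65 ± 0.813 CPM (log2 2.03, SE 0.17, adjusted p = 3e-08).

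GRF9 (AT2G42590), a 14-3-3 protein that binds phosphorylated partners, showed a smaller difference. Another member, AT2G45480, a growth-regulating factor, bears the same symbol and is not meant here. It had 37.3, 50.1 and 41.4 CPM in Col-S, 35.8, 40.1 and 37.7 CPM in Cvi-0, and 164, 198 and 163 CPM in Col-0 ozone libraries. The Col-S and Cvi-0 values overlapped and lay far below those of Col-0 (log2 Col-S over Col-0 -2.03, SE 0.11, adjusted p = 8.8e-09). The test between Col-S and Cvi-0 was not passed (0.18, SE 0.11, adjusted p = 0.24).

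A pair of protease genes belonged to the same group. AT2G39710, an aspartyl protease, had 3.75, 5.15 and 2.79 CPM in Col-S, 4.67, 4.33 and 4.27 CPM in Cvi-0, and 22.5, 30.8 and 25.6 CPM in Col-0 ozone libraries (log2 Col-S over Col-0 -2.74, SE 0.21). AT2G39850, a subtilisin-like protease, averaged 10.99 ± 7.67 CPM in Col-S, 6.31 ± 1.45 CPM in Cvi-0 and 66.8 ± 13.7 CPM in Col-0 (log2 -2.6, SE 0.44), and was called against Cvi-0 with the replicate block (0.7, adjusted p = 0.038) and not without it (0.81, adjusted p = 0.21). The remaining genes were HOL2, a methyltransferase, AT2G38995, an acyltransferase of the wax ester synthase kind, AT2G44370, a C1 domain protein next to AT2G44380, and AT2G43530, a knottin, a small cysteine-rich protein of the type that includes defensins. Their log2 fold changes of Col-S over Col-0 lay between -2.68 and -2.15, and Col-S and Cvi-0 levels overlapped at each except AT2G38995. There Col-S averaged 0.724 ± 0.214 CPM, Cvi-0 1.11 ± 0.241 CPM and Col-0 3.70 ± 0.486 CPM. AT2G44370 and AT2G44380 lie side by side and are related, but they ran opposite ways: AT2G44370 averaged 1.79 ± 0.823 CPM in Col-S and 8.81 ± 2.12 CPM in Col-0 ozone libraries. Reads could be split between these neighbours where their sequences match, and this was not tested.

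Some members had no count at all in a genotype. AT2G38990, an uncharacterized protein, had 2.56, 2.29 and 2.27 CPM in Cvi-0 ozone libraries and no count in any Col-S or Col-0 library, although it lies inside the stretch. Cvi-0 was at least 50.2-fold higher than Col-0, and Col-S was at least 44.3-fold lower than Cvi-0, against 3 counts over the group. AT2G40955, also uncharacterized, had 0.684, 0.843 and 0.689 CPM in Cvi-0 ozone libraries and none in those of Col-S and Col-0, with Col-S at least 13.7-fold lower than Cvi-0. At these 2 genes Col-S followed Col-0 at position 0.

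AT2G40350, an AP2/ERF factor that neighbours DREB2C and is related to it, had 0.444, 0.289 and 0.681 CPM in Col-S, 1.54, 1.44 and 1.86 CPM in Cvi-0 and no count in Col-0 ozone libraries. Col-S was at least 9.45-fold and Cvi-0 at least 33.8-fold higher than Col-0, and Col-S lay between its parents without overlap. The difference between Col-S and Cvi-0 missed the threshold without replicate 2 of every group (log2 -1.6, adjusted p = 0.052). Reads of the 2 neighbours could be split between them where their sequences match. AT2G40450, a BTB/POZ domain protein, had 7 counts over the Col-S ozone libraries, 11 over those of Cvi-0 and none over those of Col-0, and passed no test of Col-S against either parent. No tested member with counts in Col-0 ozone libraries lacked them in both Col-S and Cvi-0. The untested members were not searched, and a tested member needs counts in some group to pass the filter. A pair of genes outside the naming rule, chosen after their values were seen, came close. AT2G41780 had 1 count over Col-S and 3 over Cvi-0 against 99 over Col-0 ozone libraries, so that Col-S was 87.3-fold lower (95% interval 15.3 to 3480). AT2G44240 had none over Col-S and 1 over Cvi-0 against 386 over Col-0, but its Col-0 libraries spread from 0.0491 to 12.6 CPM.

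Members at which Col-S stayed nearer to Col-0 were led by COR15A, a chloroplast protein that protects membranes in the cold. It had 44.9, 30.4 and 38.6 CPM in Col-S, 9, 12.5 and 10.7 CPM in Cvi-0, and 35.5, 87.0 and 55.2 CPM in Col-0 ozone libraries. All Col-S values lay above all Cvi-0 values and overlapped those of Col-0. The log2 fold change of Col-S over Cvi-0 was 1.82 (SE 0.31, adjusted p = 0.00023) and that over Col-0 was -0.64 (SE 0.29, adjusted p = 0.14), which was called without Col-0 ozone replicate 1 (-0.91, adjusted p = 0.035). COR15B, its close copy, lies next to it, so that reads could be split between them.

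LTP2, a lipid transfer protein of the leaf surface, averaged 22.7 ± 4.31 CPM in Col-S, 11.2 ± 0.538 CPM in Cvi-0 and 22.4 ± 2.11 CPM in Col-0 ozone libraries, a position of -0.01. Col-S was above Cvi-0 (log2 1.02, SE 0.15, adjusted p = 7e-05) and overlapped Col-0 (0.02, SE 0.15, adjusted p = 0.96). At the other 4 genes Col-S was below Cvi-0, by -0.95 at AT2G38790, which overlaps another gene, by -0.88 at AT2G41730, a protein with a calcium-binding site, by -0.72 at TFIIB, a general factor of RNA polymerase II, and by -0.72 at AT2G42760, a protein of the DUF1685 family. AT2G38790 missed the threshold without replicate 2 of the Col-S (-0.77, adjusted p = 0.053) or Cvi-0 (-0.8, adjusted p = 0.054) ozone libraries, and without replicate 2 of every group (-0.6, adjusted p = 0.094). TFIIB was also above Col-0 (0.6, SE 0.15, adjusted p = 0.012), except without Col-0 ozone replicate 2 (0.54, adjusted p = 0.07) or Col-S ozone replicate 3 (0.4, adjusted p = 0.089) or with the ozone libraries alone (0.59, adjusted p = 0.079). AT2G41730 was above Col-0 as well (0.69, SE 0.2, adjusted p = 0.028), except without Col-0 ozone replicate 1 (0.66, adjusted p = 0.069) or 2 (0.54, adjusted p = 0.16) or Col-S ozone replicate 1 (0.66, adjusted p = 0.081) or 3 (0.5, adjusted p = 0.15), or with the ozone libraries alone (0.67, adjusted p = 0.091).

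Around the borders, the parental-difference genes next outside the stretch resembled those next inside. Below the lower border the position of Col-S after ozone was 1.09 at GPAT6, an enzyme of cutin synthesis, 0.57 at CAX1, a vacuolar calcium exchanger, and 0.71 at AT2G38180, an esterase. Col-S differed from Col-0 at GPAT6 (log2 1.34, adjusted p = 1.5e-05) and AT2G38180 (-1.37, adjusted p = 0.00052). At CAX1 the difference was -1.16 (adjusted p = 0.052), and it was called with the replicate block (-1.13, adjusted p = 0.0038), with no filter on low counts (-1.18, adjusted p = 0.038), without Col-0 ozone replicate 1 (-1.45, adjusted p = 0.023) or 3 (-1.4, adjusted p = 0.028), without Col-S ozone replicate 2 (-1.67, adjusted p = 0.0081) and without replicate 2 of every group (-0.95, adjusted p = 0.013). Just inside, the position was 0.53 at AT2G38240, an oxygenase, 0.73 at AT2G38250, a homeodomain-like factor, and 0.68 at AT2G38300, a myb-like factor, which was called against Col-0 with the replicate block (-0.73, adjusted p = 0.035) and without Col-S ozone replicate 2 (-0.97, adjusted p = 0.034) but not in the fit of all libraries (-0.72, adjusted p = 0.086). AT2G38240 had 40.7, 17.1 and 104 CPM in Col-S, 116, 103 and 207 CPM in Cvi-0, and 7.41, 7 and 25.7 CPM in Col-0, with overlap between neighbouring groups. Its log2 fold change over Col-0 was 2.02 (SE 0.65, adjusted p = 0.042), and with any 1 of 12 libraries left out the adjusted p was 0.05 to 0.28, the highest without Col-S ozone replicate 3 (1.13). It was also lost with the ozone libraries alone (adjusted p = 0.078) and with DESeq2 (adjusted p = 0.22).

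At the upper border, the position was 1.24 at AT2G45940, which overlaps another gene, 0.80 at AT2G46140, a late embryogenesis abundant protein, and 0.73 at BAG6, all inside. Above the border it was 0.87 at WRKY46, a defence regulator, 0.69 at AT2G46420, a helicase, and 0.98 at CNGC11, a cyclic nucleotide-gated channel. Col-S differed from Col-0 at each of these 3 genes, by 1.55 (adjusted p = 0.0071), -0.72 (adjusted p = 0.0039) and -2.54 (adjusted p = 2.4e-06). In bins of 0.25 Mb, Col-S lay nearer to Cvi-0 after ozone at 9 of 13 genes just below the stretch and at 9 of 12 just above it. Further up, the counts were 7 of 11 from 19.25 to 19.5 Mb and 2 of 7 beyond. In controls the same 4 bins held 0 of 4, 2 of 2, 1 of 6 and 0 of 4.

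Ozone changed most members in every genotype, at about the rate of the genome. In Col-S 242 members rose and 252 fell (69.2%, against 68.3% of all tested genes, 34.3% higher and 34% lower), in Cvi-0 238 rose and 266 fell (70.6%, against 70.6%, 34.5% and 36.1%), and in Col-0 209 rose and 201 fell (57.4%, against 57.3%, 29.8% and 27.5%). The response differed between Col-S and Col-0 at 36 members, 31 with a higher and 5 with a lower response in Col-S, 5.04% where 3.26% of all genes were called. Higher responses made up 2.94% and lower ones 0.325% over all genes. With the replicate number as a block the members numbered 52 and 26, and with DESeq2 54 and 12. These interactions use the control libraries, which chose the stretch. Their number rested on single libraries: the higher ones numbered 12, 16 or 19 without Col-S control replicate 3, 1 or 2, 17 without Col-S ozone replicate 3, 17 without Col-0 control replicate 2 and 20 without Col-0 ozone replicate 2. The lower ones numbered 12 without Col-S ozone replicate 2, 10 without Col-0 ozone replicate 3, and 3 without Col-S ozone replicate 3, Col-S control replicate 2 or 3, Cvi-0 control replicate 3, any Cvi-0 ozone library or Col-0 control replicate 1. Between Col-S and Cvi-0 the response differed at 6 members that were higher and 3 that were lower in Col-S (1.26%, against 4.86% of all genes, 2.66% and 2.2%), at 15 and 6 with the replicate block, at 11 and 5 with DESeq2, and at 11 and 9 without Col-S ozone replicate 3. Between Cvi-0 and Col-0 it differed at 84 higher and 78 lower members (22.7%, against 21.4%, 11.1% and 10.3%), with 50 lower ones without Col-0 ozone replicate 2.

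**Figure D4:**
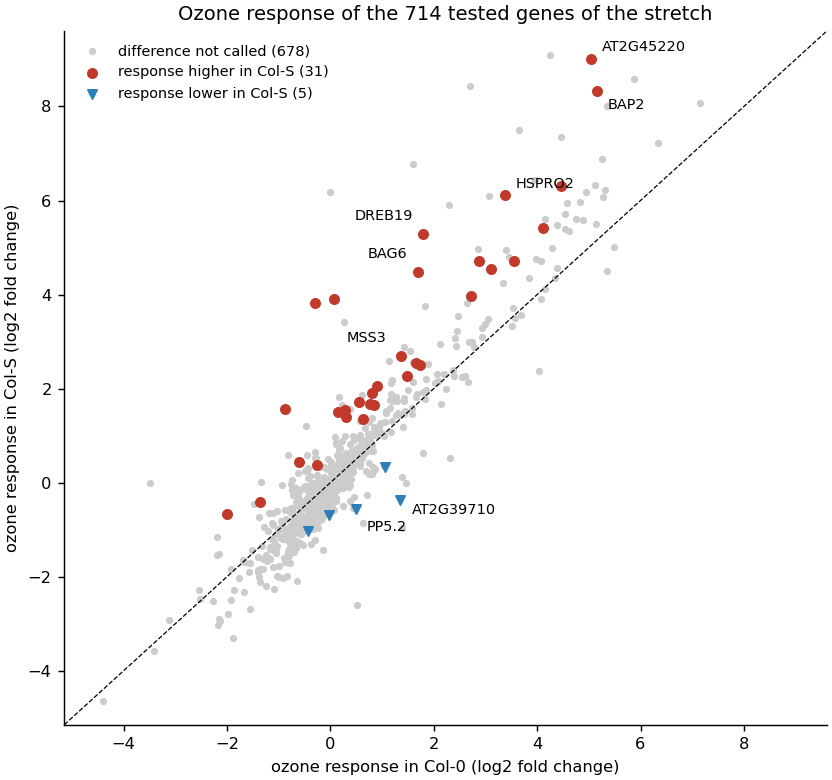
Ozone response (log2 fold change, ozone over control) in Col-S against that in Col-0 for the 714 tested members, with the diagonal of equal responses. The 31 members with a higher response in Col-S (red) lie above the diagonal, the 5 with a lower one (blue) below it, and the other 678 (grey) were not called.

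The pectin methylesterase gene AT2G45220, whose product modifies cell wall pectin, had the largest of these differences among members with a mean log2 CPM of at least 1. It had 261, 356 and 323 CPM in Col-S, 473, 518 and 335 CPM in Cvi-0, and 111, 81.7 and 202 CPM in Col-0 ozone libraries. The controls had 0.572, 0.813 and 0.409 CPM in Col-S, 0.255, 0.509 and 0.305 CPM in Cvi-0, and 0.648, 8.10 and 2.73 CPM in Col-0. All ozone values exceeded all controls, and Col-0 differed from the other genotypes both by lower ozone values and by a control replicate 2 that stood above the rest. The log2 response was 9.02 in Col-S and 5.04 in Col-0, a difference of 3.99 (SE 0.8, adjusted p = 0.011), which was 2.78 (adjusted p = 0.052) without Col-0 control replicate 2.

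DREB19, a factor related to DREB2C that overlaps another gene, had 6.51, 3.90 and 7.29 CPM in Col-S, 10.7, 13.3 and 15.2 CPM in Cvi-0, and 1.23, 0.983 and 0.922 CPM in Col-0 ozone libraries, with all controls at or below 0.327 CPM. The 3 genotypes did not overlap after ozone, and Col-S was called below Cvi-0 in the main fit and in all 24 alternative settings (log2 -1.33 to -0.9). Its response was 5.28 in Col-S and 1.8 in Col-0 on the log2 scale, a difference of 3.48 (SE 0.63, adjusted p = 0.006). BAP2, an inhibitor of cell death that works with the membrane protein BON1, had 129, 198 and 200 CPM in Col-S, 210, 255 and 161 CPM in Cvi-0, and 55.7, 44.7 and 102 CPM in Col-0 ozone libraries. The Col-0 values lay below the others without overlap, and the difference between the responses of Col-S and Col-0 was 3.16 (SE 0.76, adjusted p = 0.031). BAP2 missed the threshold without Col-0 control replicate 2 (1.87, adjusted p = 0.25), Col-0 ozone replicate 1 (3.04, adjusted p = 0.054) or 2 (2.91, adjusted p = 0.074), Col-S control replicate 1 (2.8, adjusted p = 0.086) or 3 (3.04, adjusted p = 0.093), or Col-S ozone replicate 3 (3.06, adjusted p = 0.067). At BAG6 the difference was 2.78 (SE 0.63, adjusted p = 0.022), with adjusted p from 0.052 to 0.074 without any 1 of Col-0 ozone replicates 1 and 2 and the 3 Col-S controls.

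Lower responses in Col-S were led by AT2G39710, which was higher after ozone in Col-0 (log2 1.34, SE 0.19, adjusted p = 1.4e-05), lower after ozone in Cvi-0 (-0.64, SE 0.21, adjusted p = 0.013) and not called in Col-S (-0.37, SE 0.22, adjusted p = 0.14), except without Col-S ozone replicate 2 (-0.63, adjusted p = 0.023). The difference between Col-S and Col-0 was -1.71 (SE 0.29, adjusted p = 0.0041). PP5.2, a protein phosphatase that associates with chaperones, had 28.8, 29.2 and 26.4 CPM in Col-S, 28.8, 27.7 and 32.3 CPM in Cvi-0, and 60.2, 46.1 and 57.7 CPM in Col-0 ozone libraries, against 36.6 to 47.0 CPM over all controls. It fell with ozone in Col-S (-0.56, SE 0.1) and rose in Col-0 (0.49, SE 0.1), and the responses differed by -1.05 (SE 0.15, adjusted p = 0.0017). AUG1, a subunit of the augmin complex that starts microtubules, rose less in Col-S (0.34, SE 0.1) than in Col-0 (1.05, SE 0.1), a difference of -0.71 (SE 0.15, adjusted p = 0.013), and its rise in Col-S missed the threshold without Col-S ozone replicate 3 (0.23, adjusted p = 0.06). AT2G40430, a Nop53 protein of ribosome assembly, differed by -0.66 (SE 0.17, adjusted p = 0.042), with an adjusted p of 0.05 to 0.11 without any 1 of 13 libraries.

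The 10 lists of genes by role placed 86 of their 89 entries in the stretch, and 73 of these were tested. Their counts below are to be read against all tested genes, of which 10.2% were higher and 5.74% lower in Col-S than in Col-0 after ozone. Transcription factors of stress had the largest median difference between Col-S and Col-0 after ozone, at log2 1.01 over 11 tested members of 12, against -0.01 over all tested genes. Of these, 5 were higher (10.2% of all genes) and 1 was lower (5.74%) in Col-S, and 5 were not called. WRKY55, of a family of defence regulators, had 25, 39.6 and 65.5 CPM in Col-S, 88.5, 102 and 108 CPM in Cvi-0, and 5.94, 10.8 and 8.41 CPM in Col-0 ozone libraries. The genotypes did not overlap, and Col-S was above Col-0 (log2 2.36, SE 0.31, adjusted p = 7.6e-05) and below Cvi-0 (-1.2, SE 0.28, adjusted p = 0.0041), the difference from Cvi-0 missing the threshold without replicate 2 of every group (-1.1, adjusted p = 0.055). With ozone, all 11 rose in Col-S and in Cvi-0 and 9 rose in Col-0, where 34.3%, 34.5% and 29.8% of all genes rose. The median responses were 5.28 in Col-S, 5.82 in Cvi-0 and 2.86 in Col-0, against -0.03, -0.05 and -0.02 over all genes.

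Among 7 genes of calcium sensors and transport, 3 were higher and none was lower in Col-S than in Col-0 after ozone (10.2% and 5.74% of all genes; median 0.32). CAMBP25, a calmodulin-binding protein known as a brake on osmotic stress responses, had 102, 101 and 151 CPM in Col-S, 77.5, 98.2 and 80.1 CPM in Cvi-0, and 53.2, 53.8 and 46.9 CPM in Col-0 ozone libraries. Col-S was the highest of the genotypes without overlap, above Col-0 by 1.2 (SE 0.14, adjusted p = 3.2e-05) and above Cvi-0 by 0.47 (SE 0.14, adjusted p = 0.017). The difference from Cvi-0 missed the threshold without Col-S ozone replicate 3 (0.25, adjusted p = 0.11) without Cvi-0 ozone replicate 1 (0.41, adjusted p = 0.077) or 3 (0.44, adjusted p = 0.063), and with the ozone libraries alone (0.46, adjusted p = 0.076). MSS3, a calmodulin-like protein, averaged 153 ± 20.2 CPM in Col-S, 206.1 ± 41.7 CPM in Cvi-0 and 61.8 ± 6.01 CPM in Col-0 (log2 Col-S over Col-0 1.31, SE 0.15, adjusted p = 3.2e-05). MSS3 was also called below Cvi-0 in Col-S, a call lost in 8 of 24 alternative settings (log2 -0.55 to -0.18). CAM2, a calmodulin that overlaps another gene and has near-identical copies elsewhere, was higher in Col-S by 0.86 (SE 0.14, adjusted p = 0.00068). Its reads are uncertain for both reasons.

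The kinase list held 7 members, the MAP kinases MPK12 and MPK6 and the kinases BIK1, CIPK22, CPK14, CPK20 and CRK1 (AT2G41140). Of these, 5 were tested and 1 was higher in Col-S than in Col-0 (median -0.08). That gene was MPK6, a kinase activated by ozone and in defence, which overlaps another gene. It had 116, 105 and 109 CPM in Col-S, 126, 118 and 127 CPM in Cvi-0, and 90.8, 72.7 and 93.0 CPM in Col-0 ozone libraries, with Col-0 below both others. Its log2 fold change of 0.36 (SE 0.1, adjusted p = 0.023) missed the threshold without Col-0 ozone replicate 2 (0.25, adjusted p = 0.12) without Col-S ozone replicate 1 (0.33, adjusted p = 0.091) or 3 (0.37, adjusted p = 0.062), with the ozone libraries alone (0.35, adjusted p = 0.082) and without replicate 2 of every group (0.28, adjusted p = 0.095). The abscisic acid, drought and cold list held 8 members, with 1 of 7 tested higher and none lower (median 0.30). The higher one was PP2C5, a phosphatase that acts on MAP kinases (1.05, SE 0.27, adjusted p = 0.013), which was not called without Col-0 ozone replicate 1 (0.83, adjusted p = 0.055) or Col-S ozone replicate 3 (0.64, adjusted p = 0.1), with the ozone libraries alone (1.04, adjusted p = 0.063) or without replicate 2 of every group (1.31, adjusted p = 0.05). PP2C5 was also called below Cvi-0 in Col-S, a call lost in 6 of 24 alternative settings (log2 -1.19 to -0.56).

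Defence and hormone genes went both ways, with 3 higher and 3 lower of 13 tested members of 14 (median -0.13). ERS1, an ethylene receptor that holds the pathway off until it binds the hormone, had 57.7, 41.6 and 40.6 CPM in Col-S, 47.1, 34.6 and 39.9 CPM in Cvi-0, and 122, 104 and 96.1 CPM in Col-0 ozone libraries. It was lower in Col-S than in Col-0 by log2 -1.2 (SE 0.17, adjusted p = 0.00017), and Col-S and Cvi-0 overlapped. HSPRO2, which contributes to basal resistance to bacteria, had 1140, 771 and 1730 CPM in Col-S, 1360, 1490 and 1410 CPM in Cvi-0, and 493, 308 and 419 CPM in Col-0. It was higher in Col-S than in Col-0 by 1.58 (SE 0.31, adjusted p = 0.0021), and its ozone response exceeded that of Col-0 by 2.73 (SE 0.44, adjusted p = 0.0032). SSI2, a plastid fatty acid desaturase whose loss raises salicylic acid defences, was lower in Col-S than in Col-0 (-0.48, SE 0.1, adjusted p = 0.0033), and was called against Cvi-0 only with the replicate block (0.2, adjusted p = 0.045, against 0.15 without it).

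Among cytochrome P450 enzymes and beta-glucosidases, 4 of 8 tested members of 11 were higher in Col-S than in Col-0 and none was lower (10.2% and 5.74% of all genes; median 0.70). CYP98A3, a hydroxylase of lignin synthesis that overlaps another gene, was higher by 0.75 (SE 0.16, adjusted p = 0.0032). CYP76C2, a P450 known from dying and ageing leaves, had 19.2, 15.8 and 14 CPM in Col-S, 5.07, 5.60 and 4.55 CPM in Cvi-0, and 12.2, 7.37 and 7.81 CPM in Col-0 ozone libraries. Here Col-S lay above both parents without overlap, by 1.68 over Cvi-0 (SE 0.22, adjusted p = 2e-05) and by 0.84 over Col-0 (SE 0.21, adjusted p = 0.012). The difference from Col-0 missed the threshold without Col-0 ozone replicate 2 (0.69, adjusted p = 0.065) or Col-S ozone replicate 1 (0.71, adjusted p = 0.064), and without replicate 2 of every group (0.72, adjusted p = 0.093).

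Of 7 tested genes of photosynthesis and the plastid, 2 were lower in Col-S than in Col-0, where 5.74% of all genes were lower, and none was higher (median -0.46). HEME2, an enzyme of tetrapyrrole synthesis, averaged 141.3 ± 8.61 CPM in Col-S, 129.5 ± 12.1 CPM in Cvi-0 and 200.2 ± 12.8 CPM in Col-0 ozone libraries (-0.5, SE 0.1, adjusted p = 0.0029). The redox list held 6 members, with 1 of 5 tested lower (median 0.09), namely NTRC, a plastid thioredoxin reductase that overlaps another gene (-0.46, SE 0.1, adjusted p = 0.0059; -0.43, adjusted p = 0.056, without replicate 2 of every group). The green markers fell together with these genes. In the growth, auxin and light list none of 7 tested members of 8 was called (median 0.04), and in the flowering and clock list none of 3 tested of 6 (median -0.19). Their smallest p belonged to PAR1, a repressor of shade growth (0.70, SE 0.3, adjusted p = 0.13), and to AGL20, which promotes flowering (-0.85, SE 0.38, adjusted p = 0.14). Both were called with the replicate number as a block, at adjusted p of 0.044 and 0.021.

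Among all tested genes, 34.3% rose and 34% fell with ozone in Col-S, 34.5% rose and 36.1% fell in Cvi-0, while 29.8% rose and 27.5% fell in Col-0. With 3 to 13 tested members a list's counts were set beside these shares without a test. The kinase list had 3 members that rose and 1 that fell in each genotype. Of the calcium genes 5 rose and 1 fell in Col-S, 5 rose and 2 fell in Cvi-0, and 5 rose and 1 fell in Col-0. Of the drought and cold genes 4 rose and 3 fell in Col-S and in Cvi-0, and 4 rose and 1 fell in Col-0. In the defence list 10 rose and 1 fell in Col-S, 10 rose and 2 fell in Cvi-0, and 9 rose and 1 fell in Col-0. In the P450 list 5 rose and 2 fell in Col-S and in Cvi-0, and 4 rose and 1 fell in Col-0. In the photosynthesis list 1 rose and 6 fell in either of Col-S and Cvi-0, while 1 rose and 5 fell in Col-0, with median responses of -0.91 in Col-S, -1.05 in Cvi-0 and -0.71 in Col-0. In the redox list 1 rose and 2 fell in Col-S, 2 fell in Cvi-0, and none was called in Col-0. In the growth list 1 rose and 2 fell in Col-S, 2 rose and 2 fell in Cvi-0, and 1 rose and 3 fell in Col-0. All 3 tested flowering genes fell in every genotype.

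RCA, the activase that keeps the carbon-fixing enzyme Rubisco active, had 4530, 5470 and 4270 CPM in Col-S, 3250, 3660 and 3420 CPM in Cvi-0, and 7210, 9360 and 5970 CPM in Col-0 ozone libraries, against 11500 to 13600 CPM over all controls. The genotypes did not overlap after ozone. Col-S was below Col-0 (log2 -0.66, SE 0.15, adjusted p = 0.0072; -0.68, adjusted p = 0.051, with the ozone libraries alone) and above Cvi-0 (0.47, SE 0.15, adjusted p = 0.03). The difference from Cvi-0 missed the threshold without Col-S ozone replicate 2 (0.36, adjusted p = 0.13) without Cvi-0 ozone replicate 1 (0.43, adjusted p = 0.092) or 3 (0.47, adjusted p = 0.06), with the ozone libraries alone (0.46, adjusted p = 0.12) and without replicate 2 of every group (0.41, adjusted p = 0.055). RCA fell with ozone by 1.41 in Col-S, by 1.86 in Cvi-0 and by 0.81 in Col-0 on the log2 scale, and the difference between the responses of Col-S and Col-0 did not pass the test (-0.6, SE 0.22, adjusted p = 0.15). It was called with the replicate number as a block (-0.59, adjusted p = 0.041) and without Col-0 ozone replicate 3 (-0.74, adjusted p = 0.047).

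MPK12, a MAP kinase of guard cells, which close and open the stomata, had 12.7, 13.2 and 12.7 CPM in Col-S, 16.2, 13.7 and 17.3 CPM in Cvi-0, and 14.4, 15.5 and 13.7 CPM in Col-0 ozone libraries. The controls lay between 12.6 and 17 CPM. Col-S differed from Col-0 by -0.17 (SE 0.12, adjusted p = 0.37) and from Cvi-0 by -0.29 (SE 0.12, adjusted p = 0.091), and the difference from Cvi-0 was called without Cvi-0 ozone replicate 2 (-0.37, adjusted p = 0.042). The ozone responses were -0.18 in Col-S (SE 0.12, adjusted p = 0.19), 0.05 in Cvi-0 (SE 0.12, adjusted p = 0.74) and 0 in Col-0 (SE 0.12, adjusted p = 1).

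In the controls, which chose the stretch, 60 members were parental-difference genes, where 11.1% of all tested genes were, and Col-S lay nearer to Cvi-0 at 47 of them (78.3%, against 203 of 2236, 9.08%, outside). Col-S differed there from Col-0 at 16 higher and 31 lower members (6.58%, against 0.844% of all genes, 0.339% and 0.504%) and from Cvi-0 at 9 higher and 33 lower members (5.88%, against 21.1%, 10.2% and 10.9%), and Cvi-0 differed from Col-0 at 67 higher and 77 lower members (20.2%, against 24%, 12.2% and 11.8%). Nothing is read from these counts, since the choice of the stretch fixed where Col-S stands in controls. AT2G43960 had 39.3, 32.4 and 34.9 CPM in Col-S, 35.3, 34.3 and 35.1 CPM in Cvi-0 and no count in Col-0 controls. GRF9 (AT2G42590) averaged 87.0 ± 3.64 CPM in Col-S, 78.9 ± 2.84 CPM in Cvi-0 and 235.5 ± 9.59 CPM in Col-0 controls, and ERS1 11.9 ± 2.96 CPM in Col-S, 10.2 ± 1.22 CPM in Cvi-0 and 29.96 ± 2.6 CPM in Col-0 controls. BAG6 averaged 6.80 ± 0.241 CPM in Col-S, 8.13 ± 0.246 CPM in Cvi-0 and 4.64 ± 0.809 CPM in Col-0 controls.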

How the data were processed

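Whole-rosette RNA of 18 libraries was analysed as read counts per gene, a table per library. The counts were deposited by the authors as whole numbers, not normalized. TopHat2, SAMtools, HTSeq and FastQC, each without a version, and the TAIR10 build are listed in the submitters' processing notes. No source used here states the strand or multi-mapping settings, so that reads of overlapping genes (168 of the 913 members) and of close copies could be split. The TruSeq RNA kit v2 was used, per the labels' protocols, and the replicates are called biological there. Organelle genes (279) held 0 counts. Total counts per library ranged from 14905841 to 26171613.

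Groups came from the sample titles. Genes were kept by edgeR's filterByExpr (20622 of 32678) and fitted in edgeR 4.0.16 (R 4.3.3) by its quasi-likelihood test with TMM scaling, 6 group means over all 18 libraries and 12 residual degrees of freedom. P-values were adjusted over all tested genes by Benjamini and Hochberg, and a call means an adjusted p under 0.05. CPM is edgeR's, and positions used log2 CPM with a prior count of 2. Confidence intervals are exact at 95% for ratios of counts, and the floor is 3 counts. The fit and the contrast of Col-S against Col-0 after ozone were tested on simulated data, and the other contrasts were not. Gene names and sequences came from RefSeq's copy of TAIR10.1 (899 of the 913 members matched); 2459 of 5221 matched chromosome 2 genes (47.1%) have the same start in both annotations.

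The members and lists were chosen with earlier results of these data known. Genes named had a mean log2 CPM of at least 1 and were the 8 highest and 8 lowest in Col-S against Col-0 after ozone among called parental-difference members, up to 6 nearer to Col-0 and called against Cvi-0, the 4 highest and 4 lowest called differences in ozone response between Col-S and Col-0, up to 3 called members per list in order of p (1 member, by p alone, in a list with no call), and RCA and MPK12. At any level, the 3 parental-difference genes next inside and outside each border were added. Tested members with no count after ozone in Col-0, or in both Cvi-0 and Col-S, were added too.

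The replicate numbers of the titles were checked as pairs. Over all groups, 33 of 45 same-numbered pairs were over 0.1, and all 18 libraries correlated best with their own number. The main fit did not include the replicate number. Same-numbered libraries deviated together between Col-S and Col-0 after ozone (r 0.3 to 0.45), between Col-S and Cvi-0 after ozone (0.28 to 0.35) and between ozone and control in Col-S (0.13 to 0.28). Every pair of these was over 0.1, so that the blocked value is given there where it changes a call of a named gene. Alternatives were DESeq2 1.42.0, DESeq2 size factors in edgeR, no filter on low counts, the replicate block, the ozone libraries alone, members without overlaps, other fold limits and each library left out.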

Additional observations from a re-analysis of the deposited data

Results flagged for a closer look

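The ozone responses of 15 named members differed between Col-S and Col-0 by the interaction test of edgeR, and those of 3 between Col-S and Cvi-0. Both use the control libraries, which also chose the stretch. No explanation was tested.

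The response of Col-S exceeded that of Col-0, on the log2 scale, by 3.99 at AT2G45220 (SE 0.8, adjusted p = 0.011), 3.48 at DREB19 (SE 0.63, adjusted p = 0.006), 3.16 at BAP2 (SE 0.76, adjusted p = 0.031), 2.78 at BAG6 (SE 0.63, adjusted p = 0.022) and 2.73 at HSPRO2 (SE 0.44, adjusted p = 0.0032). It exceeded it by 2.44 at AT2G44380 (SE 0.56, adjusted p = 0.025), 1.85 at CAMBP25 (SE 0.22, adjusted p = 0.00061), 1.35 at AT2G42170 (SE 0.28, adjusted p = 0.015), 1.33 at MSS3 (SE 0.22, adjusted p = 0.0036) and 0.81 at AT2G42760 (SE 0.21, adjusted p = 0.046). The response of Col-S was lower than that of Col-0, with differences of -1.71 at AT2G39710 (SE 0.29, adjusted p = 0.0041), -1.05 at PP5.2 (SE 0.15, adjusted p = 0.0017), -0.71 at AUG1 (SE 0.15, adjusted p = 0.013), -0.66 at AT2G40430 (SE 0.17, adjusted p = 0.042) and -0.59 at GRF9 (AT2G42590; SE 0.15, adjusted p = 0.044). Several of these calls were lost in some settings. GRF9 missed the threshold in 18 of the settings tried (adjusted p from 0.052 to 0.11), AT2G42760 in 16 (0.053 to 0.15) and AT2G40430 in 13 (0.05 to 0.11). BAP2 missed it in 6 (0.054 to 0.25), and AT2G45220 without Col-0 control replicate 2 (2.78, adjusted p = 0.052). BAG6 missed it in 5 (0.052 to 0.074), without Col-0 ozone replicate 1 or 2 or any 1 Col-S control. AT2G44380 also missed it in 5 (0.05 to 0.078), without Col-0 control replicate 2, any 1 Col-S control or Col-S ozone replicate 1.

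Against Cvi-0, the response of Col-S differed by 2.32 at CYP76C2 (SE 0.39, adjusted p = 0.0019), 0.97 at CAMBP25 (SE 0.22, adjusted p = 0.013) and -0.82 at MSS3 (SE 0.22, adjusted p = 0.038). For MSS3 this missed the threshold without any 1 of 8 libraries (adjusted p from 0.061 to 0.1).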

How the results depend on the processing

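Counts of members are given as higher and lower. With the replicate number as a block, Col-S differed from Cvi-0 after ozone at 50 and 71 members, and the ozone response of Col-S differed from that of Col-0 at 52 and 26 and from that of Cvi-0 at 15 and 6. DESeq2 gave 54 and 12 against Col-0 and 11 and 5 against Cvi-0 for these responses. With the ozone libraries alone, 20 members were higher in Col-S than in Cvi-0. Without replicate 2 of every group, an alternative chosen after seeing the data, 20 and 22 differed between Col-S and Cvi-0.

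At a limit of 1.5-fold, 158 of 207 parental-difference members lay nearer to Cvi-0, and at 4-fold 36 of 42. Among those that differed also in controls, a setting chosen after seeing the data, it was 25 of 29, which is no check of the share, since the stretch was chosen on such genes.

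With each library left out in turn, Cvi-0 differed from Col-0 at 127 to 155 and 120 to 160 members, Col-S from Col-0 at 59 to 101 and 67 to 98, and Col-S from Cvi-0 at 18 to 44 and 28 to 55. The difference in ozone response spanned 12 to 44 and 3 to 12 members between Col-S and Col-0, 61 to 86 and 50 to 82 between Cvi-0 and Col-0, and 5 to 11 and 2 to 9 between Col-S and Cvi-0. Parental-difference members numbered 108 to 124, of which 82 to 101 lay nearer to Cvi-0. Of 150 calls at named members, 120 held in every setting run and 30 were lost in at least 1, and no value changed sign. The causes were not tested. Beside the calls given with the results, the block made a call of AGL20 between Cvi-0 and Col-0 (-0.88, adjusted p = 0.0082) and of RCA in the response of Col-S minus Col-0 (-0.59, adjusted p = 0.041). Low counts kept 199 members out of the main tests, and the setting with no filter on low counts left out only genes with no count.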
